A study of Mus musculus with 25 samples.

Results

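Expression of 36 genes that encode synaptic vesicle and postsynaptic density proteins was measured by RNA sequencing in the cortex of 25 mice. The genes were chosen by symbol, 22 for the presynaptic side and 14 for the postsynaptic side, and were kept where they reached 0.5 FPKM (fragments per kilobase of gene, scaled to the depth of the library) in at least 5 libraries. All 36 were in the deposited table of 54532 genes, all 36 were among the 16450 genes that passed this filter, and each was above 0.5 FPKM in all 25 libraries. The 5 groups held 5 mice each. They were 5xFAD mice given a high dose (AD_HighP) or a low dose (AD_LowP) of P, 5xFAD mice given vehicle (AD_Veh), wild-type mice given the high dose (WT_HighP) and wild-type mice given vehicle (WT_Veh). The 5xFAD line is a transgenic amyloid model whose transgenes are under Thy1 regulatory sequences, which are active in neurons, and P is a natural product derivative. The sources used here do not give its identity, its doses, the length of treatment, or the age and sex of the mice. The p-values rest on the spread between these mice within groups, pooled over the 5 groups. A cortical library holds RNA of every cell type, so that fewer neurons and less RNA per neuron cannot be told apart.

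At a chemical synapse, transmitter is pumped into vesicles by vesicular transporters, the vesicles are tethered and primed at the active zone, and fusion with the membrane is carried out by the SNARE proteins under the control of synaptotagmin and complexin. Neurexins on the presynaptic side bind neuroligins across the cleft. On the other side, receptors of excitatory synapses are held by layers of scaffold proteins, the DLG, DLGAP, SHANK and HOMER families, and calcium entry acts through calmodulin and the kinase CaMKII. Loss of synapses is a known feature of amyloid models.

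The mRNAs of these genes differ in base composition, and the differences between some of the groups described further on followed it, so stretches of their coding sequence are shown first. Over the protein-coding transcripts of a gene, GC content ran from 41.5% in Nlgn1 to 63.3% in Shank3, with a median of 55.6% against 50.7% for all genes tested, and 26 of the 36 lay above that median. Each stretch is the middle 90 bases of the longest coding exon in GRCm38 (mm10), read from the GENCODE M21 transcript sequences. It runs 5′ to 3′ on the coding strand, with G and C in capitals. Nrxn2 and Nlgn1 had the largest positive and negative difference in WT_HighP against WT_Veh, Slc32a1 was the gene called, and Shank3 and Homer1 are scaffold genes of contrasting composition.
Nrxn2, chr19:6531662-6531751, plus strand: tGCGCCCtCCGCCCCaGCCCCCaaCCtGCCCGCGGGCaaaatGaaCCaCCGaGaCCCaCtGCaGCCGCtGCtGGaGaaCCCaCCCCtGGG
Shank3, chr15:89548709-89548798, plus strand: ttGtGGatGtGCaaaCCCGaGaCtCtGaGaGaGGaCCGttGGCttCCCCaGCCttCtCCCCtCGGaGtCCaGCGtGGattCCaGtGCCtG
Slc32a1, chr2:158614364-158614453, plus strand: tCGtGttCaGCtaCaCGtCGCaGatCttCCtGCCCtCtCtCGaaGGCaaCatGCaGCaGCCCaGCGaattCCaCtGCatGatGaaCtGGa
Homer1, chr13:93402089-93402178, plus strand: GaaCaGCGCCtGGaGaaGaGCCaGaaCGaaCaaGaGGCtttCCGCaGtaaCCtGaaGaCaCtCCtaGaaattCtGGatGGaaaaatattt
Nlgn1, chr3:25434006-25434095, minus strand: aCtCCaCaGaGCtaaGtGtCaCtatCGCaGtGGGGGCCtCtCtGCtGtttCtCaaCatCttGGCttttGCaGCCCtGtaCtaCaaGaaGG
Of the 90 bases, G and C made up 64 in Nrxn2, 54 in Shank3, 49 in Slc32a1, 41 in Homer1 and 46 in Nlgn1. Over the whole coding sequence of the same transcripts the share was 62.6% in Nrxn2, 64.6% in Shank3, 61.5% in Slc32a1, 46.5% in Homer1 and 45.95% in Nlgn1. The stretches of Nrxn2 (71.1%) and Nlgn1 (51.1%) are thus richer in G and C than the coding sequence. Those of Slc32a1 (54.4%), Shank3 (60%) and Homer1 (45.6%) are poorer.

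Libraries held 15518358 to 17698222 reads assigned to genes. By Xist and the Y-linked gene Ddx3y, each group held 3 males (mice 1, 2 and 3) and 2 females (mice 4 and 5). Thy1 averaged 462 FPKM in AD_HighP, 483 in AD_LowP and 458 in AD_Veh, against 185 in WT_HighP and 155 in WT_Veh, so that each 5xFAD group was above both wild-type groups. Of 15 microglial markers, 12 were called higher in AD_Veh against WT_Veh (adjusted p under 0.05 by limma), against 3.1% of all genes called. In AD_HighP against WT_HighP 12 were called higher, against 1.75% of all genes called. The cortical excitatory markers Neurod6 and Tbr1 were present in every library. Libraries stood apart in 4 ways. Ttr, a choroid plexus gene, was above 5 times the median in 5 libraries (AD_HighP 1 and 4, WT_HighP 1 and 2, WT_Veh 1). It was at 788 and 484 FPKM in AD_HighP 1 and 4 and at 671 and 820 in WT_HighP 1 and 2. In WT_Veh 1 it was at 58.2 FPKM, and the next library, AD_Veh 1, was at 23.7. The summed level of 13 striatal marker genes ran from 63.4 to 1275 FPKM. The slope of expression on GC content ran from -0.29 to 0.24 log2 units per 10 GC points. The share of reads on mitochondrially encoded genes ran from 3.63 to 6.83%.

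Synaptic genes were among the most abundant of the cortical libraries. The median member stood at the 96.0th percentile of tested genes by mean FPKM, and the lowest at the 53.1st. The highest was Nrgn, which encodes the calmodulin-binding protein neurogranin. Its level was 1068, 1155, 1108, 947 and 923 FPKM in AD_HighP mice 1 to 5, 461, 695, 934, 861 and 1002 in AD_LowP, 1215, 1067, 979, 684 and 439 in AD_Veh, 1030.0, 716, 1097, 1149 and 869 in WT_HighP and 1001, 937, 492, 858 and 785 in WT_Veh. The groups overlapped, and the 3 lowest mice belonged to 3 groups. The highest presynaptic member was Snap25, a SNARE protein of the plasma membrane, at 307 to 404 FPKM in AD_HighP, 263 to 397 in AD_LowP, 266 to 376 in AD_Veh, 211 to 365 in WT_HighP and 288 to 475 in WT_Veh.

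**Figure D1:**
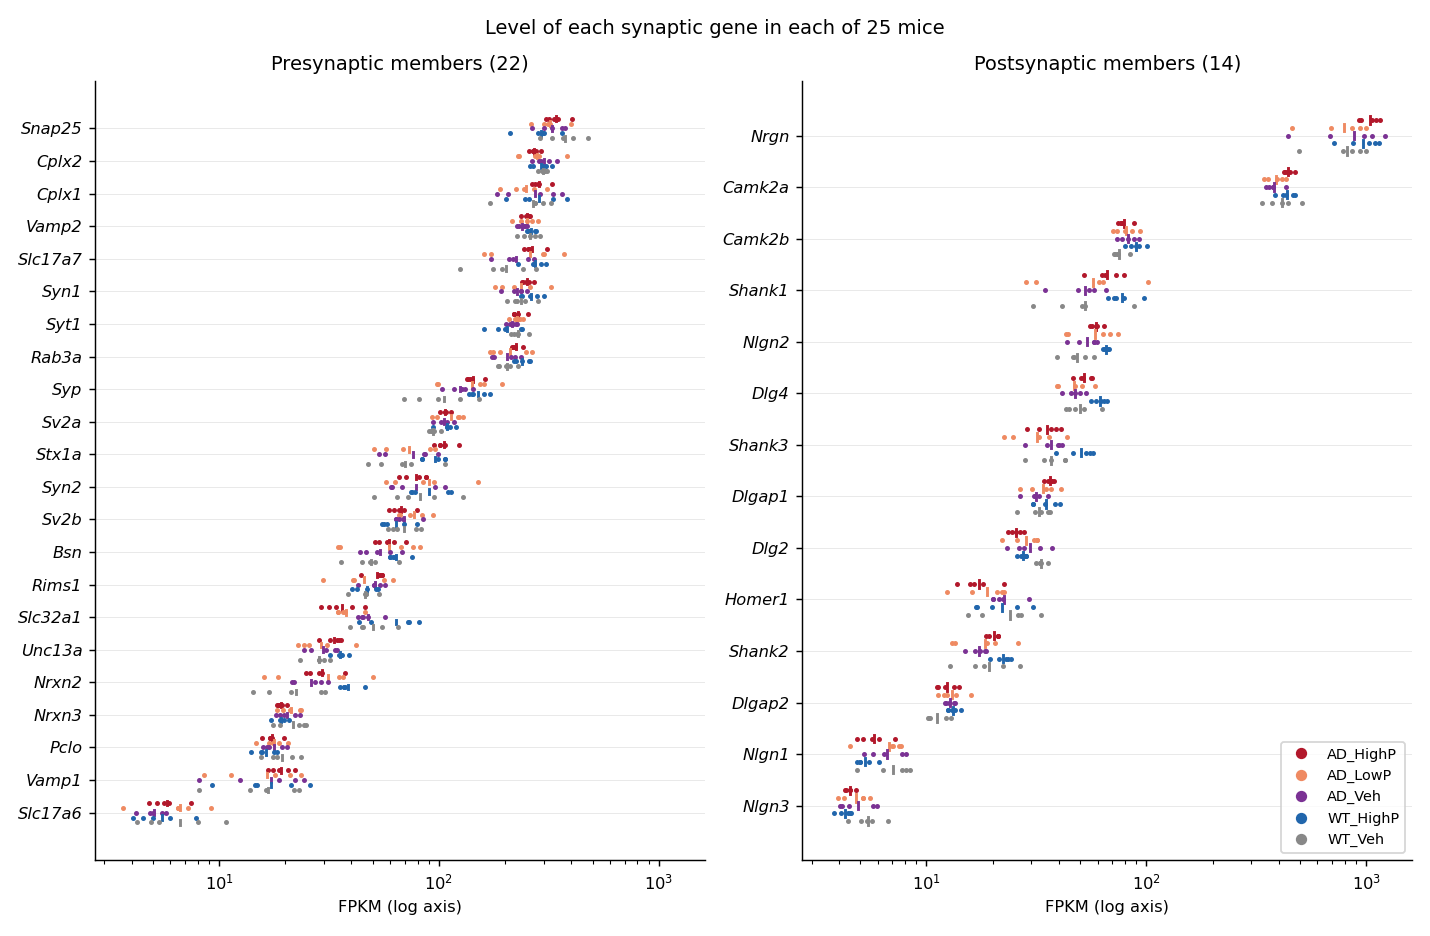
Level of each of the 36 synaptic genes in each mouse (FPKM, log axis), presynaptic on the left and postsynaptic on the right, ordered by mean. Dots are mice, short bars are means of 5 mice, and colours are groups; between genes the levels run from 4.76 FPKM for Nlgn3 to 899 for Nrgn, and within a gene the groups largely overlap.

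Among the vesicle proteins, Syn1 averaged 242 FPKM over the 25 mice, the small GTPase Rab3a 216, synaptophysin (Syp) 132, Sv2a 106, Syn2 83.9 and Sv2b 69.3. The synapsins Syn1 and Syn2 tether vesicles to each other and to actin, and Sv2a and Sv2b are vesicle membrane glycoproteins. In the fusion machinery, Cplx2 averaged 288 FPKM, Cplx1 272, Vamp2 252, the calcium sensor Syt1 220.5, Stx1a 84.1 and Vamp1 17.3. Vamp2, the SNARE protein of the vesicle, was 16.6 ± 7.28 times as abundant as its relative Vamp1 (SD, n = 25 mice), while the complexins Cplx2 and Cplx1 were close to each other, with a ratio of 1.11 ± 0.31.

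The vesicular transporters mark the transmitter a neuron releases. Slc17a7, which loads glutamate in cortical pyramidal neurons, averaged 245 FPKM. Slc17a6, which loads glutamate mainly in subcortical neurons, was the lowest presynaptic member at 4.82, 5.89, 5.19, 7.45 and 5.59 FPKM in AD_HighP, 9.16, 6.48, 6.51, 3.64 and 7.25 in AD_LowP, 5.52, 4.202, 4.82, 5.01 and 5.74 in AD_Veh, 4.48, 4.05, 5.02, 5.96 and 7.84 in WT_HighP and 4.22, 5.34, 10.8, 4.90 and 8.05 in WT_Veh. All 5 groups overlapped. The Slc17a7 to Slc17a6 ratio was 47.2 ± 11.4 in AD_HighP, 46.7 ± 33.0 in AD_LowP, 45.0 ± 8.98 in AD_Veh, 51.9 ± 10.3 in WT_HighP and 34.3 ± 18.5 in WT_Veh (SD, n = 5 each). Slc32a1, which loads GABA and glycine in inhibitory neurons, averaged 47.0 FPKM.

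Of the active zone genes, the scaffolds Bsn and Pclo averaged 57.1 and 17.7 FPKM. Rims1, which binds Rab3, averaged 48.5 and the priming factor Unc13a 31.2. The neurexins Nrxn2 and Nrxn3 averaged 29.5 and 20.3 FPKM, and across the cleft the neuroligins Nlgn2, Nlgn1 and Nlgn3 averaged 57.1, 6.30 and 4.76 FPKM. Nlgn2, the neuroligin of inhibitory synapses, was thus 9.57 ± 2.92 times as abundant as Nlgn1, that of excitatory synapses (SD, n = 25 mice). This ratio differed by group, with means from 7.29 in WT_Veh to 12.5 in WT_HighP. The GC content of the pair is 60.4% and 41.5%, and the part of the slope on GC content in the ratio was not tested. Nlgn3, the lowest member of all, was at 4.27 to 4.78 FPKM in AD_HighP, 3.97 to 5.51 in AD_LowP, 4.04 to 5.95 in AD_Veh, 3.79 to 4.54 in WT_HighP and 4.40 to 6.66 in WT_Veh.

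Among the scaffolds, Shank1 averaged 61.2 FPKM, Dlg4 51.6, Shank3 38.2, Dlgap1 33.8, Dlg2 28.8, Homer1 20.9, Shank2 19.5 and Dlgap2 12.5. The kinase subunits Camk2a and Camk2b averaged 412 and 81.4 FPKM. When all 36 were ordered by their level in WT_Veh, 34 of 35 neighbouring pairs had overlapping ranges, so that neighbours in this order were not separated by the spread between mice. That spread also differed by group. The median coefficient of variation was 8.75% for presynaptic and 7.53% for postsynaptic members in AD_HighP, 23.3% and 18.1% in AD_LowP, 12.5% and 13.7% in AD_Veh, 11.1% and 8.65% in WT_HighP, and 17.9% and 16.0% in WT_Veh.

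The comparison of AD_Veh with WT_Veh asked what the transgenes change in the absence of P. No synaptic gene passed the test (limma on log2(FPKM + 0.5), adjusted p under 0.05 by the Benjamini-Hochberg method over all tested genes), against 3.1% of all genes tested, and 1 of 36 had an unadjusted p under 0.05 (Dlgap2), against 11.4% of all genes. A fold change on this scale understates the change of low genes. The fit by limma voom on recovered reads also called none. The median log2 fold change was 0.01 over presynaptic members and -0.04 over postsynaptic members, beside -0.02 over all genes. Its Spearman correlation with GC content was 0.580 across the members and 0.325 across 16431 genes. Of the 18 members richer in GC, 13 were positive, with a median of 0.06. Of the 18 poorer in GC, 5 were positive, with a median of -0.08. By group of roles the medians ran from -0.08 for the neuroligins to 0.10 for the active zone.

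The largest positive differences were those of Syp and Nrxn2. Syp, the major vesicle membrane protein, had 142, 131, 117, 127 and 103 FPKM in AD_Veh, against 152, 98.8, 124, 69.6 and 81.5 in WT_Veh (log2 fold change 0.28, SE 0.18, adjusted p = 0.618). The AD_Veh values lie within the range of WT_Veh. Nrxn2 had 31.2, 27.3, 21.999, 29.1 and 21.4 FPKM in AD_Veh, against 30.4, 21.1, 29.1, 14.2 and 16.8 in WT_Veh (0.27, SE 0.24, adjusted p = 0.756). The largest negative ones were those of Slc17a6 (-0.29, SE 0.22, adjusted p = 0.695), with the values given above, and of Dlg2, a scaffold that binds glutamate receptors. Dlg2 had 23.4, 26.5, 27.9, 37.1 and 32.8 FPKM in AD_Veh, against 31.5, 33.0, 32.9, 32.8 and 35.7 in WT_Veh (-0.18, SE 0.11, adjusted p = 0.55). No member had groups that did not overlap, against 3.84% of all genes. The median SE of a member's log2 fold change was 0.14, and differences of about 2 SE or less did not pass here.

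**Figure D2:**
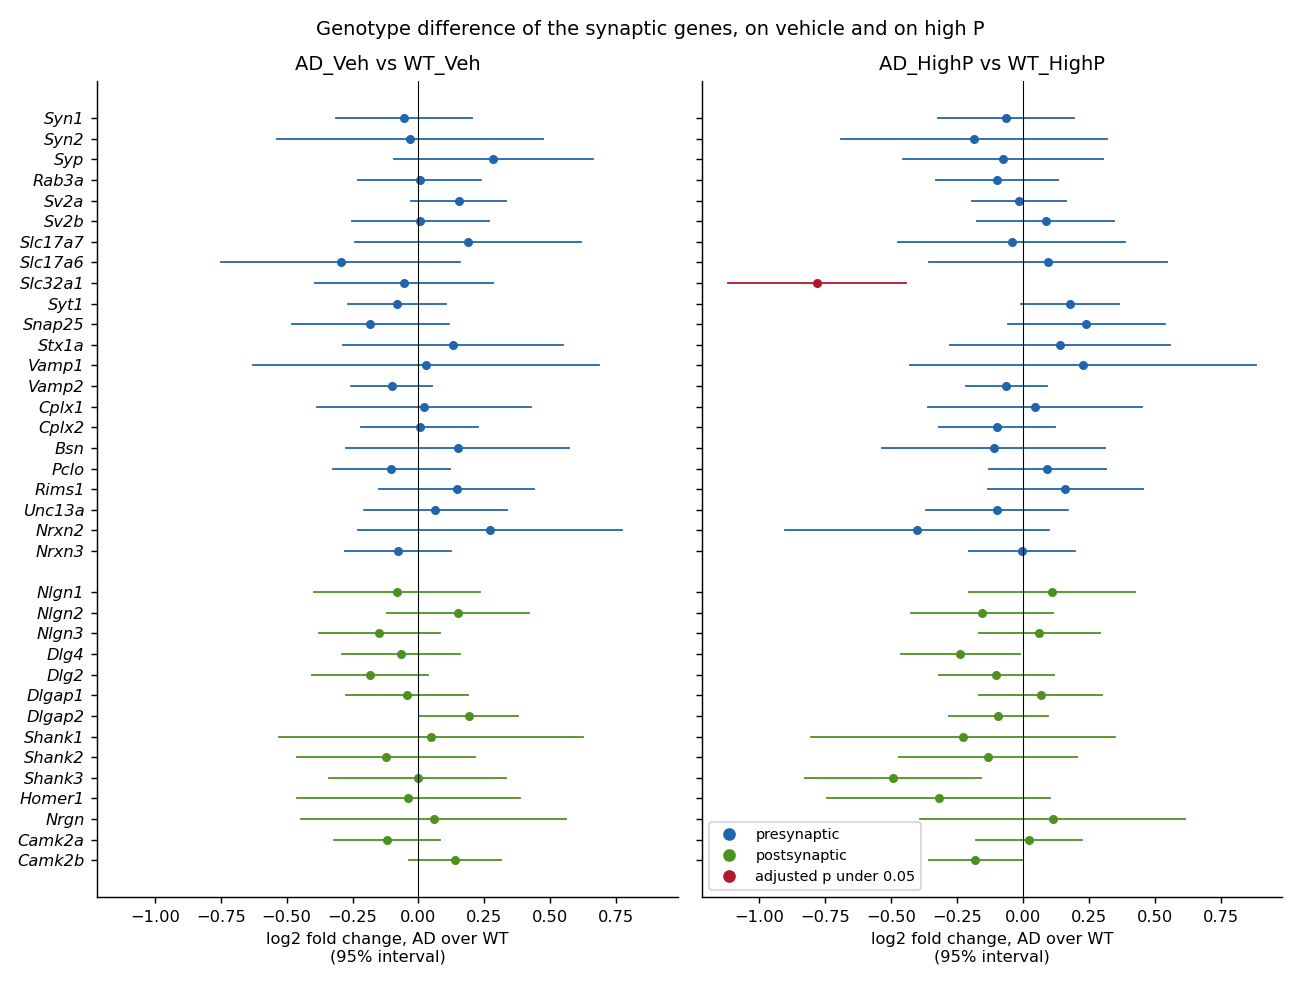
Log2 fold change of the 36 synaptic genes with its 95% interval (lines), AD_Veh over WT_Veh on the left and AD_HighP over WT_HighP on the right; presynaptic genes are blue, postsynaptic genes green, and red marks an adjusted p under 0.05. Only Slc32a1 on high P (-0.78) is red.

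Between genotypes on the high dose (AD_HighP against WT_HighP), 1 of the 36 passed, against 1.75% of all genes tested, and 4 had an unadjusted p under 0.05, against 10.3% of all genes. The gene was Slc32a1, the vesicular GABA transporter (ENSMUSG00000037771, a protein-coding gene on chromosome 2 from 158610767 to 158615748 in mm10), which was lower in AD_HighP than in WT_HighP. Its level was 34.1, 40.1, 46.1, 29.1 and 31.8 FPKM in AD_HighP mice 1 to 5, against 80.9, 72.0, 72.7, 49.2 and 43.3 in WT_HighP. The means were 36.2 ± 6.84 FPKM in AD_HighP and 63.6 ± 16.4 in WT_HighP (SD, n = 5 each), with a log2 fold change of -0.78 (SE 0.16, adjusted p = 0.00673 by limma). The ranges overlapped in 1 place, since AD_HighP 3 was above WT_HighP 5. The other groups had 46.3, 36.5, 34.6, 37.3 and 34.6 FPKM (AD_LowP), 44.5, 57.1, 42.8, 47.7 and 45.3 (AD_Veh) and 44.7, 55.0, 39.3, 65.1 and 45.2 (WT_Veh). Of the 5 groups, WT_HighP thus held the 3 highest mice, all males, and AD_HighP the lowest.

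The difference in Slc32a1 was negative in both sexes. Means were 40.1 FPKM in AD_HighP males and 75.2 in WT_HighP males, a log2 difference of -0.91, and 30.4 FPKM in AD_HighP females and 46.2 in WT_HighP females, a difference of -0.59. With any 1 of the 10 mice left out, it stayed between -0.91 and -0.69 (adjusted p from 0.00124 to 0.0322). The other inhibitory markers did not pass. Gad1 and Gad2, which make GABA, differed by -0.36 (SE 0.15, adjusted p = 0.395) and -0.49 (SE 0.25, adjusted p = 0.529). Sst differed by -0.65 (adjusted p = 0.237), Vip by 0.34 (adjusted p = 0.473) and Pvalb by 0.08 (adjusted p = 0.972). Of 16 inhibitory neuron markers, Slc32a1 itself was the one called, 3 were positive, and the median was -0.24.

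Markers of the striatum moved with this gene in this comparison. The striatum adjoins the cortex, and most of its neurons are GABAergic. The summed level of 13 striatal markers was 86.5, 167, 531, 63.4 and 202 FPKM in AD_HighP mice 1 to 5, against 1081, 826, 737, 151 and 253 in WT_HighP. It ranged from 69.7 to 667 in AD_LowP, 294 to 753 in AD_Veh and 275 to 1275 in WT_Veh, and none of the 13 was at 0 in every library. Ppp1r1b, the most used marker of striatal projection neurons, had 32.3, 50.9, 134, 21.6 and 48.6 FPKM in AD_HighP, against 271, 202, 169, 44.1 and 55.7 in WT_HighP. The median log2 difference of the 13 markers was -1.40 in AD_HighP against WT_HighP, with 0 of 13 called and 13 of 13 negative. Without a correction for GC content, the markers and the gene did not move to a like extent in every comparison. In WT_HighP against WT_Veh the marker median was -0.33, with 3 of 13 positive, while Slc32a1 differed by 0.33. In AD_HighP against AD_LowP the marker median was -0.68, while Slc32a1 differed by -0.07. With a correction for GC content, Slc32a1 differed by -0.09 in WT_HighP against WT_Veh and by -0.25 in AD_HighP against AD_LowP. The marker medians are without this correction. The mice with high Slc32a1 in WT_HighP were those with high striatal markers, and AD_HighP 3, the highest of its group in Slc32a1, was also the highest in these markers. With the striatal marker level as a covariate, an alternative chosen after these values were seen, Slc32a1 differed by -0.51 (adjusted p = 0.0299).

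The call was lost with a correction for GC content (-0.63, adjusted p = 0.149). It was also lost without the libraries high in Ttr (-0.46, adjusted p = 0.82), a fit that left 3 mice in each group. With only the groups compared in the fit, so that the spread was not pooled over the others, the call was kept (adjusted p = 0.0437 by limma). The part of striatal tissue in the difference was not tested beyond these values.

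**Figure D3:**
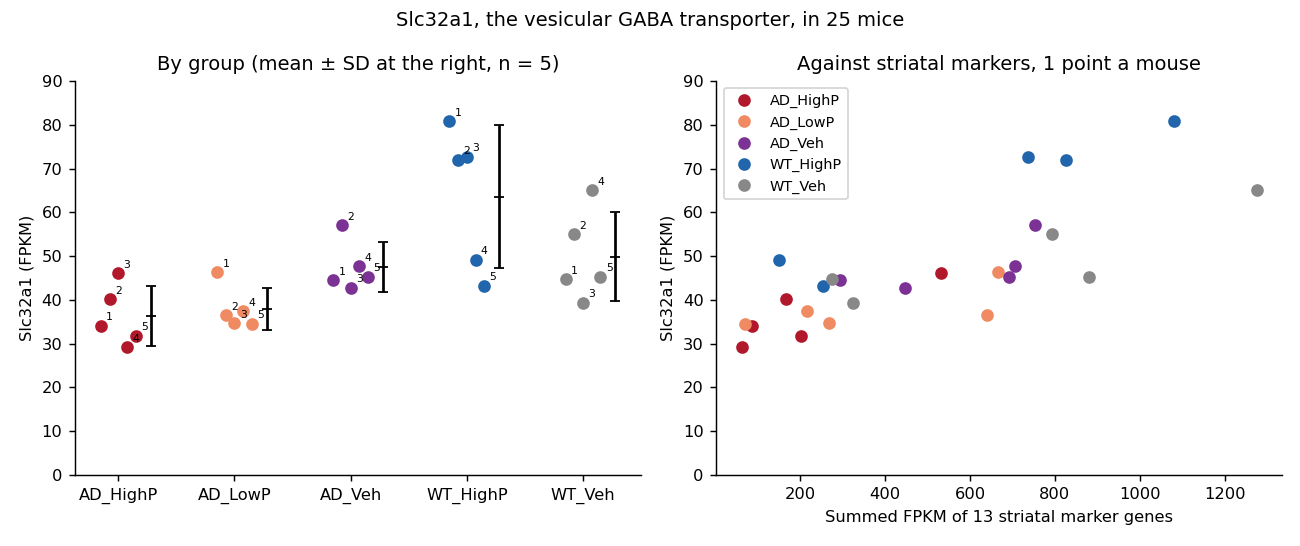
Slc32a1 in FPKM by group (left; dots are numbered mice, with the mean and SD of 5 mice at the right of each group) and against the summed FPKM of 13 striatal marker genes (right; 1 point per mouse). WT_HighP mice 1, 2 and 3 are the highest in Slc32a1 and are at 737 to 1081 FPKM of striatal markers, while 4 AD_HighP mice are at or under 202.

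The remaining members did not pass in AD_HighP against WT_HighP. Among them Shank3, the scaffold at the base of the postsynaptic density, had the next smallest p. It had 38.9, 36.7, 40.7, 32.5 and 28.6 FPKM in AD_HighP, against 57.4, 53.1, 55.5, 46.6 and 38.6 in WT_HighP (-0.49, SE 0.16, adjusted p = 0.167). The WT_HighP values were higher except for mouse 5. With array weights limma called Shank3 beside Slc32a1 (adjusted p = 0.00858), where 5.9% of all genes were called. With the GC correction Shank3 differed by -0.33 (adjusted p = 0.197 by limma). The glutamate transporters Slc17a7 (-0.04, adjusted p = 0.97) and Slc17a6 (0.09, adjusted p = 0.923) stood near 0. The median was -0.03 over presynaptic and -0.12 over postsynaptic members, and over the 8 scaffold genes it was -0.18, with 7 of 8 negative. Of the 18 members richer in GC, 15 were negative, and the Spearman correlation with GC content was -0.493 across the members and -0.346 across 16431 genes. After the GC correction these medians were 0.01, -0.05 and -0.12. None of the members had groups free of overlap, against 5.77% of all genes.

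High P in wild-type mice (WT_HighP against WT_Veh) showed the widest spread of differences among the synaptic genes. No member was called, against 3.17% of all genes tested. An unadjusted p under 0.05 was found for 18 of 36 members, against 27.8% of all genes, and limma voom on recovered reads called Nrxn2 and Nlgn2, against 3.24% of all genes. The smallest adjusted p was 0.0529 (Nrxn2), followed by 0.0533 (Nlgn2). Of the 36, 25 were positive, and the median was 0.12 over presynaptic and 0.24 over postsynaptic members, beside 0.00 over all genes.

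Nrxn2, a neurexin gene (ENSMUSG00000033768, chromosome 19 from 6418731 to 6544169), had 37.2, 46.3, 37.0, 37.2 and 35.4 FPKM in WT_HighP, against 30.4, 21.1, 29.1, 14.2 and 16.8 in WT_Veh (0.83, SE 0.24). All WT_HighP mice were above all WT_Veh mice. Shank1 had 66.9, 71.4, 79.0, 97.9 and 73.1 FPKM in WT_HighP, against 88.1, 50.8, 52.5, 30.7 and 41.2 in WT_Veh (0.63, SE 0.28, adjusted p = 0.142), where WT_Veh 1 was above 4 of the 5 WT_HighP mice. At the other end, Nlgn1 had 4.99, 4.82, 5.47, 4.98 and 6.11 FPKM in WT_HighP, against 4.84, 6.35, 8.09, 8.40 and 7.71 in WT_Veh (-0.37, SE 0.15, adjusted p = 0.117). Snap25 had 282, 211, 301, 365 and 299 FPKM in WT_HighP, against 326, 367, 288, 409 and 475 in WT_Veh (-0.35, SE 0.14, adjusted p = 0.116). Both overlapped between the groups.

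Groups that did not overlap were found for 4 members, or 3 higher and 1 lower, against 9.42% of all genes. Apart from Nrxn2 these genes are named because their values were seen. Nlgn2 had 67.7, 63.5, 64.5, 67.2 and 64.8 FPKM in WT_HighP, against 57.5, 46.9, 52.7, 39.1 and 46.2 in WT_Veh (0.44, SE 0.13). Unc13a had 32.0 to 38.9 FPKM in WT_HighP, against 23.4 to 31.9 in WT_Veh (0.32, adjusted p = 0.114), and Dlg2 had 25.7 to 28.3 in WT_HighP, against 31.5 to 35.7 in WT_Veh (-0.27, adjusted p = 0.106). Nlgn2 was the most even of all members within WT_HighP, where its coefficient of variation was 2.75%.

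The differences followed GC content. Across the 36 members, which are not independent, the Spearman correlation of the log2 fold change with GC content was 0.908, and across 16431 genes it was 0.703. All 18 members in the upper range of GC content were positive, with a median of 0.33, while the 18 in the lower range had a median of -0.11 with 7 positive. Shank3 (0.44), Shank1, Nlgn2, Nrxn2 and Slc32a1 (0.33), the 5 members with more than 60% GC, were positive, and Nlgn1, Slc17a6, Homer1 (-0.10) and Dlg2, the 4 with the least, were negative. With all tested genes in 4 bins by GC content, the median was 0.30 in the highest bin and -0.25 in the lowest. After a correction for GC content in each library, the median was 0.04 over the upper 18 and -0.04 over the lower 18 members, and Nrxn2 was at 0.40 (adjusted p = 0.308), Nlgn2 at 0.07 (adjusted p = 0.771), Shank1 at 0.18 and Nlgn1 at -0.10. By its design this correction takes out any difference that follows GC content across genes, whatever the source. The share of mitochondrial reads moved with this comparison as well. It was 4.28, 4.71, 4.56, 3.96 and 4.10% in WT_HighP, against 5.89, 6.58, 6.06, 6.64 and 6.25% in WT_Veh, with no overlap. The summed level of the 13 mitochondrially encoded genes was 28621 to 33069 FPKM in WT_HighP, against 41117 to 49195 in WT_Veh. Of the 13, 4 were called lower and 2 higher, against 3.17% of all genes called. Their median log2 fold change was -0.61, with 4 of 13 positive. The part of the mitochondrial difference in the order by GC content was not tested.

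**Figure D4:**
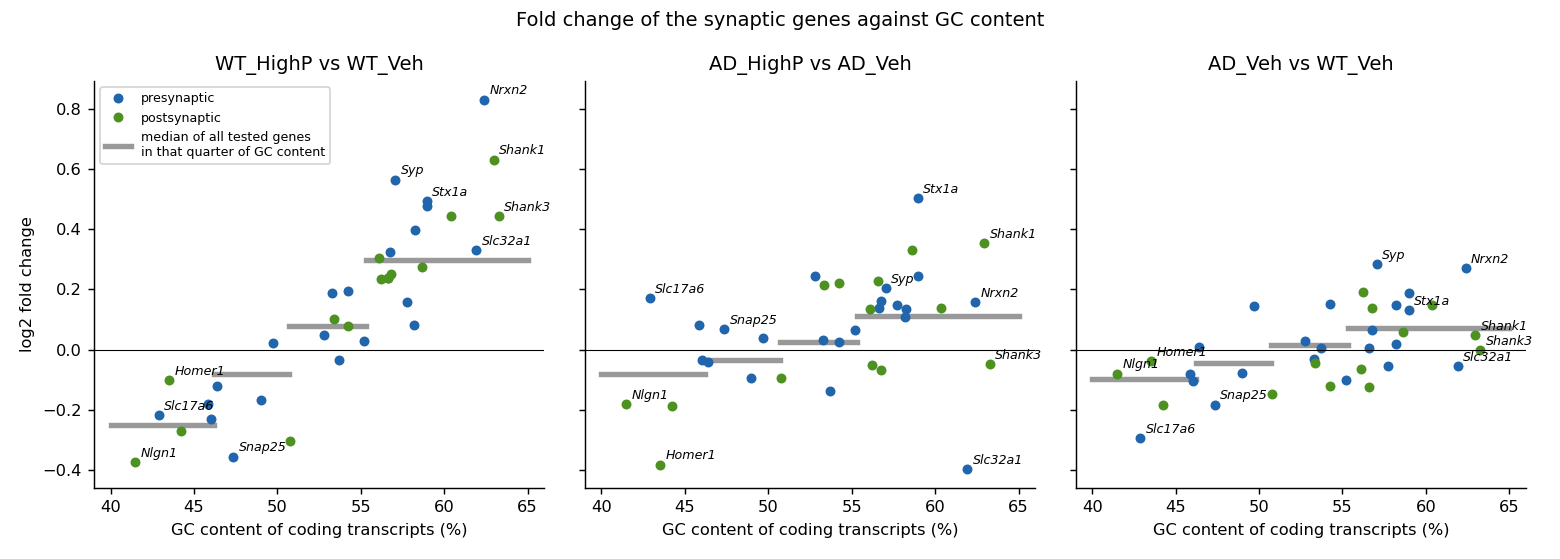
Log2 fold change of the 36 synaptic genes against the mean GC content of their protein-coding transcripts (percent) in 3 comparisons; grey bars are the median over all tested genes in each of 4 bins of GC content, drawn between 40 and 65%. In WT_HighP against WT_Veh the members climb along the axis, with Nlgn1 at -0.37 and Nrxn2 at 0.83, and the bars climb from -0.25 to 0.30.

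Per mouse, the median of the 18 GC-rich members minus that of the 18 GC-poor ones, as log2 deviations from the mean of 25 mice, was 0.15, 0.12, 0.11, 0.07 and -0.10 in AD_HighP, -0.41, -0.44, 0.02, 0.17 and 0.20 in AD_LowP, 0.12, 0.15, -0.06, -0.14 and -0.37 in AD_Veh, 0.29, 0.35, 0.27, 0.26 and 0.21 in WT_HighP and 0.20, -0.05, -0.23, -0.31 and -0.43 in WT_Veh. WT_HighP was above the other groups in all 5 mice with no overlap, and WT_Veh 1 stood near WT_HighP 5. Without WT_Veh 1, which was also above the limit for Ttr (58.2 FPKM), limma called 9 members in WT_HighP against WT_Veh, against 16.6% of all genes. They were Nrxn2, Syp, Nlgn2, Dlg4, Stx1a, Shank1, Shank3 and Slc17a7 higher and Nlgn1 lower. In AD_LowP, mice 1 and 2 stood apart from the other 3, and their shares of mitochondrial reads were 6.69 and 6.83%, with 4.62, 3.87 and 3.63% in the others. Syp, for example, had 97.7 and 98.6 FPKM in those 2 mice and 154, 193 and 160.0 in the others, and Bsn had 34.6 and 35.5 FPKM against 76.0, 82.0 and 67.5.

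**Figure D5:**
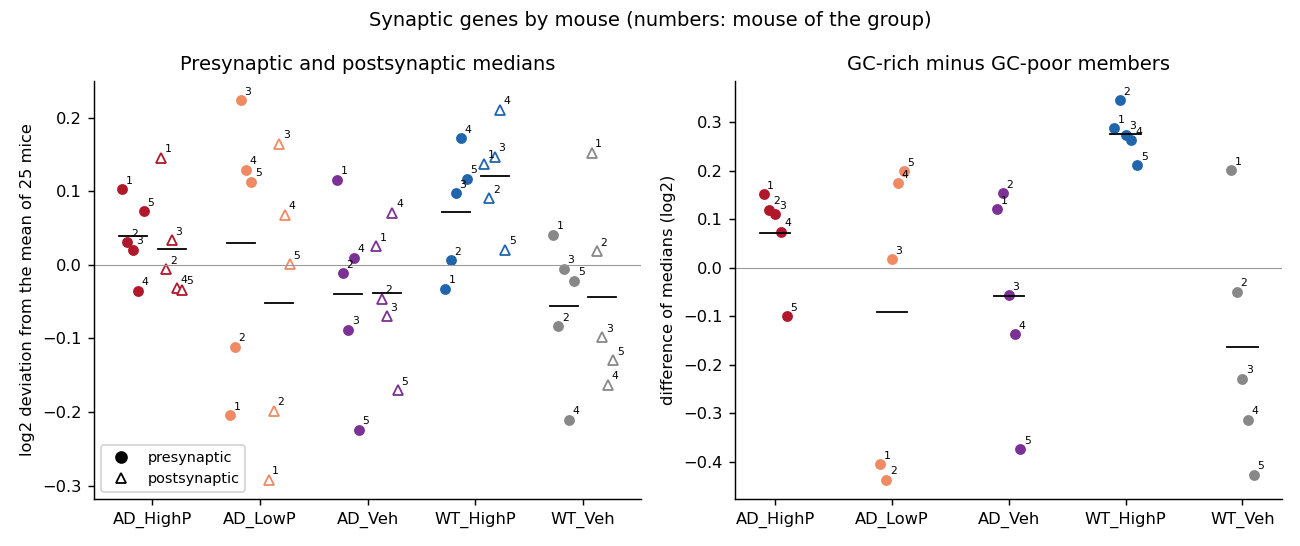
Left, the median log2 deviation of presynaptic (filled circles) and postsynaptic (open triangles) members in each mouse from the mean of 25 mice; right, the median of the 18 GC-rich members minus that of the 18 GC-poor members (log2). Lines are means of 5 mice and numbers are mice; WT_HighP mice lie between 0.21 and 0.35 on the right, and AD_LowP mice 1 and 2 at -0.41 and -0.44.

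The doses of P in 5xFAD mice were compared with vehicle and with each other. In AD_LowP against AD_Veh no member was called (0% of all genes tested) and none had an unadjusted p under 0.05, against 2.98% of all genes. Slc17a6 (0.31, SE 0.22) and the synapsin gene Syn2 (0.15, SE 0.24) had the largest positive differences. Syn2 had 95.01, 62.8, 57.5, 151 and 84.6 FPKM in AD_LowP, against 61.1, 67.9, 60.6, 96.3 and 106 in AD_Veh. Slc32a1 (-0.32, SE 0.16) and Homer1 (-0.28, SE 0.20) had the largest negative ones, all with an adjusted p of 1. The 13 striatal markers had a median of -1.03 here, with 13 of 13 negative. Homer1, which links SHANK proteins to metabotropic glutamate receptors, had 20.9, 22.6, 22.1, 12.5 and 16.1 FPKM in AD_LowP, against 20.1, 20.1, 22.2, 29.2 and 21.4 in AD_Veh. All members overlapped between these groups, against 0.377% of genes that did not. With GC content the differences had a Spearman correlation of -0.08 across the members and -0.01 across 16431 genes.

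In AD_HighP against AD_Veh none of the members passed, against 0.00608% of all genes (1 gene), and 3 had an unadjusted p under 0.05, against 5.98% of all genes. Stx1a, the syntaxin of the plasma membrane, had 123, 101, 107, 101 and 95.3 FPKM in AD_HighP, against 98.9, 86.3, 85.9, 56.6 and 53.2 in AD_Veh (0.50, SE 0.20, adjusted p = 0.78), and only AD_HighP 5 was below any AD_Veh mouse. Shank1 had 79.5, 72.5, 62.6, 64.8 and 52.2 FPKM in AD_HighP, against 65.8, 54.8, 48.6, 57.96 and 34.7 in AD_Veh (0.35, SE 0.28, adjusted p = 0.786). Slc32a1 differed by -0.40 (SE 0.16, adjusted p = 0.78) and Homer1 by -0.38 (SE 0.20, adjusted p = 0.78). The 13 striatal markers had a median of -1.74 in this comparison, with 13 of 13 negative, and over the other settings Slc32a1 ran from -0.55 (GC correction) to -0.08 (striatal covariate). Homer1 had 15.8, 16.4, 18.0, 13.7 and 22.5 FPKM in AD_HighP, where 4 of 5 mice were below all AD_Veh mice. The groups were free of overlap for Shank2 alone, at 18.7 to 21.2 FPKM in AD_HighP, against 15.02 to 18.6 in AD_Veh (0.23, adjusted p = 0.785), and for 1.35% of all genes. The median was 0.09 over presynaptic and 0.04 over postsynaptic members, beside 0.00 over all genes. With GC content the differences had a Spearman correlation of 0.424 across the members and 0.366 across 16431 genes.

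Between the doses (AD_HighP against AD_LowP) there were no calls among the members or all genes (0%), and 1 member, Stx1a, had an unadjusted p under 0.05, against 6.19% of all genes. Stx1a had 50.4, 57.7, 68.7, 95.8 and 91.4 FPKM in AD_LowP, where mouse 4 alone was above the lowest AD_HighP mouse (0.57, SE 0.20, adjusted p = 0.773). Nrgn differed by 0.44 (SE 0.24, adjusted p = 0.773), Nlgn1 by -0.20 (SE 0.15, adjusted p = 0.785) and Sv2b by -0.18 (SE 0.12, adjusted p = 0.778). Sv2b had 59.3 to 79.4 FPKM in AD_HighP, against 65.7 to 94.4 in AD_LowP. No member was free of overlap, against 0.9% of all genes. With GC content the differences had a Spearman correlation of 0.551 across the members and 0.372 across 16431 genes. Comparisons with AD_Veh or AD_HighP share those mice, so that the differences of Slc32a1, Homer1 and Stx1a in these paragraphs are not independent of each other.

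The interaction asked whether the difference between high P and vehicle depends on genotype. None of the members and 0% of all genes passed, while 5 members had an unadjusted p under 0.05, against 6.92% of all genes. The largest estimates were -0.73 for Slc32a1 (SE 0.23, 95% interval -1.20 to -0.25, adjusted p = 0.71) and -0.67 for Nrxn2 (SE 0.34, adjusted p = 0.713) on the negative side. On the positive side they were 0.42 for Snap25 (SE 0.20, adjusted p = 0.71) and 0.39 for Slc17a6 (SE 0.31, adjusted p = 0.778). The Spearman correlation of the interaction with GC content was -0.711 across the members and -0.511 across 16431 genes.

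The presynaptic and postsynaptic members were also compared as sides of the synapse. The presynaptic minus the postsynaptic median log2 fold change was 0.05 in AD_Veh against WT_Veh, 0.09 in AD_HighP against WT_HighP, -0.11 in WT_HighP against WT_Veh, 0.04 in AD_LowP against AD_Veh, 0.05 in AD_HighP against AD_Veh, -0.03 in AD_HighP against AD_LowP and 0.09 for the interaction. Per mouse, the same difference of medians averaged 0.02 ± 0.06 in AD_HighP, 0.08 ± 0.02 in AD_LowP, 0.00 ± 0.06 in AD_Veh, -0.05 ± 0.10 in WT_HighP and -0.01 ± 0.11 in WT_Veh (SD, n = 5 each), and the groups overlapped. These differences were not tested, since members of a side are not replicates.

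Further synaptic genes outside the 36 were counted in the same fit. Of 52 other presynaptic genes, 1 was called higher in AD_Veh against WT_Veh, where 3.1% of all genes were called. None was called in the other comparisons. The gene called was Ppfia4, a liprin of the active zone, with 13.7, 13.1, 12.5, 13.01 and 10.97 FPKM in AD_Veh, against 9.78, 9.12, 9.80, 10.1 and 8.26 in WT_Veh (0.41, SE 0.10, adjusted p = 0.0237). The groups did not overlap, as was so for 3.84% of all genes. The GC content of Ppfia4 is 57.5%. In WT_HighP this gene had 11.6 to 12.5 FPKM (0.34 against WT_Veh, adjusted p = 0.0579 by limma). In AD_HighP it had 10.05 to 14.5 FPKM (0.03 against WT_HighP, adjusted p = 0.955 by limma). Of 50 other postsynaptic genes, 1 was called lower in WT_HighP against WT_Veh, where 3.17% of all genes were called. None was called elsewhere. The gene called lower was Lrrtm2, a postsynaptic partner of neurexins, with 16.0, 12.4, 16.2, 15.3 and 16.2 FPKM in WT_HighP, against 15.9, 20.2, 19.8, 25.3 and 28.5 in WT_Veh (-0.49, SE 0.14, adjusted p = 0.04997). The groups overlapped through WT_Veh 1, and its GC content is 40.3%, below that of every member. The medians of these lists lay between -0.04 and 0.05 for the presynaptic and between -0.07 and 0.04 for the postsynaptic genes over the 7 comparisons.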

How the data were processed

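The authors deposited 1 table of FPKM values per gene and library, with gene lengths; reads had been aligned with HISAT2 to mm10, per the submitters' processing notes, and the sources used here name no counting tool or annotation. Poly(A)-selected, strand-specific libraries were made with random priming and PCR, per the labels' protocols. Groups and mouse numbers came from the labels. Read counts were recovered from the deposited FPKM and gene lengths, and 100% of them came out whole (tolerance 0.01). Genes that reached 0.5 FPKM in 5 or more of 25 libraries were tested as log2(FPKM + 0.5), with a pseudocount of 0.5, by limma 3.58.1 in R 4.3.3. The fit had a mean per group, variances following intensity and 20 residual degrees of freedom. Tests were two-sided, adjusted by Benjamini-Hochberg over the 16450 genes of each of 7 comparisons and called under 0.05. The 95% intervals were built from limma's SE and the t distribution with 20 degrees of freedom. The tests used limma's moderated degrees of freedom. The fit was tested on simulated data. GC content was the mean over protein-coding transcripts in GENCODE M21 (GRCm38), in which 54495 of 54532 identifiers were found, 98.3% with the same coordinates. Its correction removed, per library, a spline on GC content that was fitted to the log2 deviations from each gene's mean over libraries. At this depth the median SE was 0.15 over all genes.

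The members, their sides and roles, and all gene lists were chosen with earlier results of these data known. Every member is named. Fold changes are given for called genes or, where none was called, for the 2 largest rises and 2 largest falls, most with values per mouse or ranges per group. Values per mouse or ranges per group are given for the highest and lowest member of each side. Of other synaptic genes, up to 3 called per list are named. The series design gives 5 mice for each group. Same-numbered mice did not deviate together (r from -0.38 to 0.27, median 0.02), and no pairing was used. Alternatives were other pseudocounts, filters, scaling, weights, covariates, reads in place of FPKM, and libraries left out.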

Additional observations from a re-analysis of the deposited data

Results flagged for a closer look

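In 11 of 180 sets of 5 mice (36 genes in 5 groups), 1 mouse lay far from the other 4 by Dixon's test, where chance gives about 1 in 20. In AD_HighP these were mouse 1 for Syp (162 FPKM) and Slc17a7 (309.7 FPKM), mouse 3 for Camk2b (88.3 FPKM) and mouse 4 for Rims1 (44.4 FPKM, the lowest of its group). In AD_LowP they were mouse 1 for Slc32a1 (46.3 FPKM) and mouse 5 for Nlgn1 (4.49 FPKM, the lowest). In AD_Veh mouse 4 was highest for Sv2b (84.9 FPKM) and Homer1 (29.2 FPKM). In WT_HighP they were mouse 4 for Bsn (75.2 FPKM) and mouse 2 for Nrxn2 (46.3 FPKM), and in WT_Veh mouse 4 for Camk2b (84.1 FPKM). AD_HighP 1 and 4 and WT_HighP 2 were among the 5 libraries high in Ttr; the part of this in their values was not tested.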

How the results depend on the processing

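The call of Slc32a1 in AD_HighP against WT_HighP was kept in 21 of 24 other settings, and the count of called members there became 0 with a GC correction, with a GC correction and replicate block together and without the libraries high in Ttr, and 2 with array weights (5.9% of all genes). Mouse numbers did not pair the mice; with them as a replicate block, Slc32a1 had an adjusted p of 0.0081, no other member was called in any comparison, and the calls over all genes in WT_HighP against WT_Veh numbered 218 in place of 522. In that comparison, where the main count of members was 0, it became 2 with a filter of 1 FPKM (5.28% of all genes called), 4 with only the groups compared (9.2%), 16 with array weights (20.5%), 2 with voom on recovered reads (3.24%), 1 with sex as a covariate (5.04%), 4 with the striatal covariate (5.16%), and 0 to 9 with single mice left out (9 without WT_Veh 1, 0 without any other). Over all genes this comparison had 20 calls with a GC correction, 0 with no filter and 0 without the libraries high in Ttr. With single mice left out its calls over all genes ran from 0 (without WT_Veh 5 or WT_HighP 3) to 2724 (without WT_Veh 1). The presynaptic minus postsynaptic median there was 0.00948 with a GC correction, with or without the block, -0.0222 without the libraries high in Ttr, and -0.146 to -0.0180 with single mice left out. In AD_HighP against WT_HighP it was 0.00279 without the libraries high in Ttr and 0.000323 with the striatal covariate, and for the interaction -0.0125 without those libraries. The cause of these shifts was not tested. The GC correction with replicate block and the striatal covariate were chosen after seeing the data. In the other 4 comparisons and the interaction no member was called in any setting. With 5 mice a group, differences of several SE were not called either, such as that of Nrxn2 in WT_HighP against WT_Veh.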
